A study of Mus musculus with 3 samples.

Results

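Scg3+ S100g+ cells were a small set of Pdgfra-positive connective tissue cells of the mouse hind paw in which the transcripts of Scg3 and S100g were detected together. Cells were used if they had at least 500 genes, at least 1000 unique molecular identifiers (UMIs, each standing for one captured RNA molecule) and at most 10% mitochondrial UMIs. A cell belonged to the set with at least 1 UMI each of Pdgfra, Scg3 and S100g, no UMI of Kera, Coch, Itih2, Ptprc or Pecam1, and fewer than 5 UMIs of Saa3. This rule was met by 204 of the 15562 Pdgfra-positive cells and of the 18540 cells that passed the filter. Of the 204 cells, 91 came from the day 5 library and 113 from the day 0 library. The counts of the rule genes chose the cells, so those counts are given below as a description only. Multiplying the share of cells with Scg3 by the share with S100g, among Pdgfra-positive cells under the same exclusions, gives 51.2 cells at day 5 and 70.1 at day 0. The cells found were 1.78 and 1.61 times as many. These ratios use the rule genes themselves and describe the choice. The product also takes all cells to be equally deep, which they were not, and the part of depth in the ratios was not tested.

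The cells come from K/BxN serum transfer arthritis, in which serum of arthritic K/BxN mice, injected into the peritoneum, starts a joint inflammation. Stromal day 5 held CD45-negative cells sorted from hind paws 5 days after serum, and stromal day 0 held CD45-negative cells from paws at steady state. Another library, myeloid day 9, held blood-lineage cells (CD45+, CD11b+, without Ly6G) and enters no comparison here. The strain, age and number of mice are not given in the sources used here. Both stromal libraries were made from paws without skin, muscles and tendons, per the labels, by digestion with collagenase IV and deoxyribonuclease, a density step and flow sorting, and they were sequenced with the 10x 3' kit. Cells of tendon or its sheath that were counted here are therefore those left on the dissected paw.

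The secretogranin Scg3 is a granin, known from endocrine and nerve cells, where it takes part in loading peptides into dense-core secretory granules. S100g encodes a small cytosolic calcium-binding protein that vitamin D induces in the gut. A tendon sheath is the thin synovial sleeve around tendons that run over bone, and its fibroblasts lie beside, but are not, the tenocytes that build the tendon's collagen cords. Kera (keratocan, a small proteoglycan) and Coch (cochlin, a matrix protein) mark the tenocyte-type cells that the rule kept out. On the GRCm38 (mm10) build, Scg3 lies on chromosome 9 (75643189 to 75684056, minus strand) and S100g on chromosome X (162961992 to 162964599, minus strand), both protein-coding. Kera lies on chromosome 10 (97606879 to 97613692, plus strand) and Coch on chromosome 12 (51593341 to 51605771, plus strand).

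The deposited tables held 11900 barcodes and 122224428 UMIs at day 5, and 7740 barcodes and 77842586 UMIs at day 0. The stromal libraries shared 32 barcode sequences, or 0.413% of the smaller library. There was 1 library per day, so no test was run, no p-value is given and the day and the library cannot be told apart. Levels are CPM, the UMIs of a gene summed over a set of cells and scaled to the total UMIs of that set. The intervals in brackets are at 95%, exact, and cover counting error only: Clopper-Pearson for shares, Poisson for CPM and conditional binomial for ratios. Cells of 1 library are not replicates of a condition.

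Scg3+ S100g+ cells made up 0.968% of the 9397 Pdgfra-positive cells at day 5, with an interval of 0.780 to 1.19. They made up 1.83% of the 6165 such cells at day 0, with an interval of 1.51 to 2.20. The share at day 5 was 0.528 times that at day 0 (0.396 to 0.703). Digestion and sorting shaped what was loaded, and the shares refer to loaded cells. The Scg3+ S100g+ cells were deeper than other Pdgfra-positive cells, with median UMIs of 11930.0 against 9778 at day 5 and 12154 against 10181.5 at day 0, and a deeper cell shows a rare transcript more often. Cells with at least 5000 UMIs were also thinned to 5000 before the rule was applied, and shallower cells were left out. The shares among the thinned cells were 0.567% at day 5 and 0.965% at day 0.

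Most of the cells lay near the threshold of the rule. At day 5, 40 of the 91 cells had a single Scg3 UMI, 39 had a single S100g UMI, and 21 had exactly 1 of each. At day 0, 54 of the 113 cells had a single Scg3 UMI, 45 had a single S100g UMI, and 20 had exactly 1 of each. The highest counts were 27 Scg3 UMIs and 27 S100g UMIs in a cell at day 5, and 64 and 80 at day 0. Just outside the rule, 850 Pdgfra-positive cells at day 5 and 843 at day 0 had Scg3 but no S100g under the same exclusions, and 271 and 208 had S100g but no Scg3. Of the 125 Pdgfra-positive cells with both transcripts at day 5 and the 140 at day 0, 26 and 21 had Itih2, 5 and 3 Kera, 1 and 3 Coch, and 2 and 3 Pecam1. Saa3 reached the limit in 9 of these cells at day 5 and 0 at day 0, so the limit acted on the day 5 library alone. Some cells met more than 1 of these exclusions, so the counts overlap.

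Both transcripts were detected more often in Pdgfra-positive cells than in endothelial or osteoblast-type cells. In cells thinned to 5000 UMIs, Scg3 was found in 8.69% of other Pdgfra-positive cells at day 5 and 13.9% at day 0, and S100g in 3.28% and 3.91%. Cells with Pecam1 and Cdh5 (endothelial) had neither transcript after thinning, in 34 cells at day 5 and 67 cells at day 0. In cells with at least 5 UMIs each of Ibsp and Bglap (osteoblast genes) Scg3 was found in 0 of 111 cells at day 5 and 2 of 151 at day 0, and S100g in 1 cell of each library. Unthinned, the median depth of these cells was 7435 and 8014 UMIs for the osteoblast genes and 8846 and 7139 UMIs for the endothelial genes. In the Kera or Coch cells, S100g was found in 5.47% at day 5 and 9.09% at day 0 after thinning, and Scg3 in 3.28% and 5.83%. The myeloid day 9 library held no UMI of either gene in 5945 cells.

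Igfbp6, Thbs2 and Aspn had been proposed as further markers of tendon-sheath-like cells with Scg3 and S100g. Igfbp6 and Aspn lay above the other Pdgfra-positive cells in both libraries, though below 2-fold at day 0, and the summed level of Thbs2 did so at day 5 alone. Igfbp6, which binds insulin-like growth factors, had 4013 CPM in Scg3+ S100g+ cells against 1523 CPM in other Pdgfra-positive cells at day 5, and 4201 against 2403 CPM at day 0. That was 2.64-fold (2.56 to 2.71) and 1.75-fold (1.70 to 1.79). Aspn, a small leucine-rich proteoglycan that binds collagen, had 1315 against 565 CPM at day 5 and 1826 against 952 CPM at day 0. Its ratios were 2.33 (2.21 to 2.45) and 1.92 (1.85 to 1.99). Thbs2, a thrombospondin of loose connective tissue, had 178 against 156 CPM at day 5 and 143.5 against 183 CPM at day 0, so that it was 1.14-fold at day 5 and 0.782-fold at day 0. Thbs2 was thus below the Kera or Coch cells in both libraries, which had 469 CPM at day 5, against 622 CPM at day 0. Igfbp6 was found in 90 of 91 cells at day 5 and 109 of 113 at day 0, and Aspn in 85 and 101.

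The list of genes known from tendon sheath and the tissue around tendons, which includes these 3, held 11 genes with enough counts outside the rule. Of these, 0 were at least 2-fold higher in both libraries, and the median log2 ratio was 0.80 at day 5 and 0.53 at day 0. Over the 2754 genes compared, the medians were 0.03 and 0.04. Tppp3, which marks cells of the tendon sheath in mice, had 198 against 80.0 CPM at day 5 and 409.9 against 223 CPM at day 0, or 2.48-fold and 1.84-fold. Prg4, the lubricin of synovial and sheath surfaces, had 1984 against 3589 CPM at day 5 and 868 against 3486 CPM at day 0. Prg4 and Thbs2 were nevertheless detected in more of the Scg3+ S100g+ cells than of the other Pdgfra-positive cells. Prg4 was found in 83.5% against 71.9% at day 5 and 71.7% against 59.7% at day 0, and after thinning in 73.0% against 61.4% at day 5 and 62.0% against 50.9% at day 0. Thbs2 was found in 65.9% against 49.7% at day 5 and 62.8% against 47.6% at day 0, and after thinning in 50.6% against 36.5% and 45.1% against 36.4%. The other cells included a cluster with Prg4 among its leading genes (cluster 13 of those described below), which held none of the Scg3+ S100g+ cells. Summed levels and detection thus ran in different directions for Prg4 in both libraries and for Thbs2 at day 0. For Thbs2 at day 5 both were higher. The cells are called by their genes here. General fibroblast genes were near the level of the other Pdgfra-positive cells, with Dcn (decorin) at 1.06-fold and 0.855-fold and Col3a1 at 0.923-fold and 0.950-fold.

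Leukocyte, neutrophil, endothelial, muscle and erythroid markers were scarce in the Scg3+ S100g+ cells. Most of these lists were low in other Pdgfra-positive cells under the same exclusions as well. Mural and Schwann lists lay near the other Pdgfra-positive cells. Of 12 leukocyte genes, 1 was detected in each library, with 1 UMI each, and Tyrobp and, by the rule, Ptprc were at 0. Their sums were 0.823 CPM at day 5 and 0.683 CPM at day 0, against 2.995 and 2.66 CPM in cells under the same exclusions. Of 11 neutrophil genes, 2 were detected in each library, with 3 UMIs at day 5 and 2 at day 0, and S100a8 and S100a9 were at 0. Under the same exclusions, the neutrophil sums compared as 2.47 against 5.61 CPM at day 5 and 1.37 against 0.856 CPM at day 0. Blood endothelial genes summed to 15 UMIs at day 5 and 23 at day 0, with Cdh5 at 0, skeletal muscle genes to 6 and 15 UMIs, and erythroid genes to 0 and 9 UMIs. Against cells under the same exclusions, endothelial sums were 12.35 against 19.1 CPM at day 5 and 15.7 against 16.7 CPM at day 0. Muscle sums were 4.94 against 8.88 CPM and 10.25 against 33.6 CPM. Erythroid sums were 0 against 139.6 CPM and 6.15 against 10.97 CPM. Mural genes summed to 79.1 against 110.3 CPM in the other Pdgfra-positive cells at day 5 and 94.3 against 116 CPM at day 0, with Rgs5 and Notch3 at 0. Schwann cell genes summed to 445 against 399 CPM at day 5 and 608 against 544 CPM at day 0, with Sox10 at 0. Of these sums Pmp22, a membrane protein gene also expressed in fibroblasts, gave 408 against 338 CPM at day 5 and 572.5 against 475 CPM at day 0. The part of these lists in the results was not tested.

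Against the other 9306 Pdgfra-positive cells of day 5 and 6052 of day 0, the Scg3+ S100g+ cells stood out through few genes, led by Dpp4, Ccn3, Pou2f2 and Sema3e. Of the 2754 genes outside the rule with at least 50 CPM in the higher of the 2 sets in both libraries, 8 were at least 2-fold higher in both (0.29%) and 41 at least 2-fold lower in both (1.49%). The 8 genes were Dpp4, Ccn3, Pou2f2, Sema3e, Anxa3, Sbsn, Myoc and Abca8b. These ratios describe cells chosen by their counts and carry no test. Dpp4, Ccn3, Pou2f2, Anxa3, Sbsn and Myoc were each among the 10 leading genes of a cluster described below. The Scg3+ S100g+ cells were a small share of those clusters. Cluster 2 as a whole had 89.1 CPM of Dpp4 and 321 CPM of Anxa3, and cluster 1 had 494 CPM of Ccn3 and 494 CPM of Sbsn. Without the cell that held most UMIs of each gene, 5 genes were higher, and with the cells of highest Scrublet score (a score of likely doublets) removed, 15 were.

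Dpp4, a surface peptidase known from adventitial fibroblast progenitors, had 80.7 against 16.3 CPM at day 5 and 73.8 against 18.4 CPM at day 0, or 4.96-fold (4.01 to 6.08) and 4.00-fold (3.26 to 4.88). It was found in 44.0% of the Scg3+ S100g+ cells at day 5 and 46.9% at day 0, against 11.2% and 11.9% of the other Pdgfra-positive cells. After thinning, the Dpp4 ratio was 2.54 at day 5 and 5.82 at day 0. Ccn3, a matricellular protein of the CCN family, had 431 against 99.8 CPM at day 5 and 696 against 268 CPM at day 0, or 4.31-fold (3.94 to 4.71) and 2.60-fold (2.44 to 2.77). Pou2f2, a POU transcription factor best known from B cells, had 90.6 against 25.3 CPM at day 5 and 84.0 against 33.2 CPM at day 0. Sema3e, a secreted semaphorin that guides vessels and axons, had 128 against 47.2 CPM at day 5 and 181 against 79.3 CPM at day 0. The calcium-dependent phospholipid binder Anxa3 was 2.18-fold and 2.28-fold.

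Other leading genes are better known from epithelia and the eye. Sbsn (suprabasin, a secreted protein of stratified epithelium) had 312 against 152 CPM at day 5 and 378 against 169.6 CPM at day 0, with 12.7% and 20.3% of its UMIs in a single cell. Without those cells its ratios were 1.81 and 1.80. Myoc (myocilin, a secreted glycoprotein known from the eye) was among the most abundant of the leading genes, with 3760.4 against 1600.3 CPM at day 5 and 4271.5 against 2087 CPM at day 0. Its ratios were 2.35 (2.28 to 2.42) and 2.05 (2.00 to 2.10). Abca8b, a lipid transporter, was 2.03-fold and 2.36-fold.

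The next 12 genes by the ranking of ratios lay just under the 2-fold line in 1 or both libraries. They included Pcolce2, an enhancer of procollagen processing, at 2.46-fold and 1.91-fold, and Fbln2, a matrix glycoprotein of elastic tissue, at 2.24-fold and 1.89-fold. Mustn1, a small nuclear protein of the musculoskeletal system, was 3.22-fold at day 5 and 1.87-fold at day 0. Ifi27l2a, an interferon-induced gene, was 2.99-fold and 1.98-fold. The adhesion molecule Cadm3 was 1.97-fold and 2.40-fold, and the actin-binding peptide gene Tmsb4x 1.95-fold and 1.85-fold. The remaining 5 besides Aspn were Slco3a1, Heg1, Lims2, Adgrd1 and Tppp3, between 1.84-fold and 2.48-fold.

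**Figure D1:**
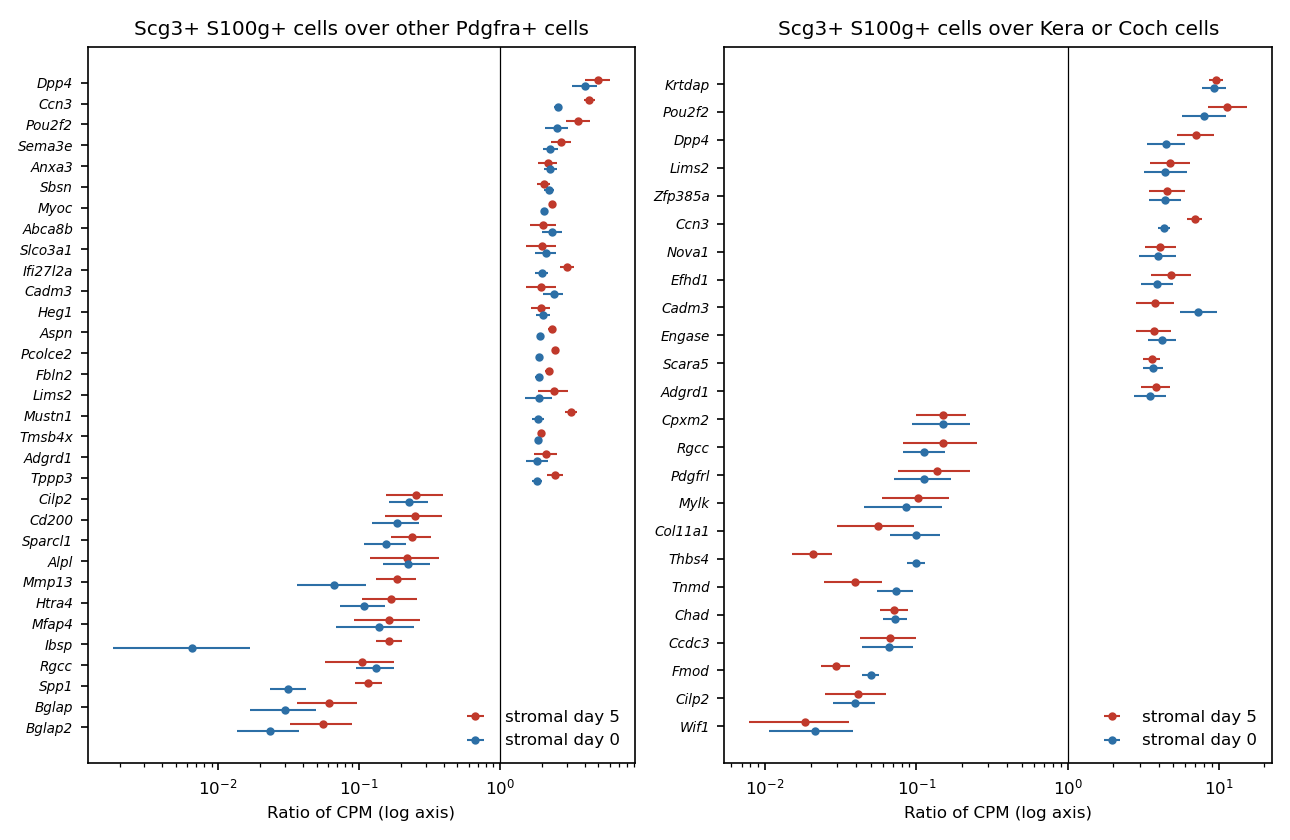
Ratio of CPM (log axis) of the Scg3+ S100g+ cells over other Pdgfra-positive cells (left) and over cells with Kera or Coch (right) for the named genes, at day 5 (red) and day 0 (blue), with exact 95% intervals of counting error. The ratios of the higher genes on the left stay below 5-fold while Bglap2 lies at 0.0558 and 0.0236, and on the right Krtdap lies at 9.55 and 9.28 while Wif1 lies at 0.0183 and 0.0213.

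Genes of bone-forming cells were the lowest. All 5 osteoblast-list genes that could be compared were at least 2-fold lower in both libraries. Bglap2, an osteocalcin gene, had 11.6 against 493 CPM at day 0 and was at 0.0558 times the other cells at day 5. Spp1 (osteopontin) had 69.2 against 592 CPM at day 5 and 32.8 against 1038 CPM at day 0. Bglap and Bglap2 are near-identical copies, so reads may be split between them. The other cells included cluster 17 of those described below, with 5920 CPM of Bglap and 8340 CPM of Ibsp over both libraries. Pdgfra-positive cells outside cluster 17 had 20.6 CPM of Bglap and 61.8 CPM of Ibsp. The Scg3+ S100g+ cells had 14.8 and 70.8 CPM at day 5, and 10.3 and 2.73 CPM at day 0. Set against the cells outside cluster 17, taken over both libraries, Bglap was lower in both libraries and Ibsp at day 0 alone. The part of cluster 17 in the low ratios was not tested. Of the 12 lowest genes, Bglap2, Bglap, Spp1, Ibsp, Mmp13 and Alpl belong to bone formation or turnover. The others were Rgcc, Mfap4, Htra4, Sparcl1, Cd200 and Cilp2, between 0.106 and 0.254 at day 5 and between 0.108 and 0.226 at day 0.

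Genes of the synovial sublining around vessels were also lower. Of 8 such genes compared, 0 were higher and 5 were at least 2-fold lower in both libraries, with a median log2 ratio of -1.17 at day 5 and -1.09 at day 0. Gdf10, a BMP-family ligand, had 50.2 against 219 CPM at day 5 and 69.0 against 226 CPM at day 0. The chemokine Cxcl14 had 374 against 1909 CPM at day 5 and 588 against 1289 CPM at day 0, and the lipid carrier Apoe had 442 against 1619 CPM at day 5 and 507 against 1312 CPM at day 0. Cxcl12 was at 0.416 and 0.484 times the other cells, and Smoc2, a calcium-binding matrix protein, at 0.473 and 0.353. The synovial lining gene Htra4 was at 0.170 and 0.108.

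Genes of adventitial progenitor-like fibroblasts tended the other way without most of them reaching 2-fold. Of 9 compared, 2 were higher in both libraries (Dpp4 and Anxa3) and 0 lower, with median log2 ratios of 1.01 at day 5 and 0.60 at day 0. Clec3b (tetranectin) had 2008 against 847 CPM at day 5 and 2783 against 1588 CPM at day 0. Ly6c1 had 2400.2 against 1057 CPM at day 5 and 2542 against 1594 CPM at day 0. Pi16, the peptidase inhibitor usually named with Dpp4, had 1354 against 1005.5 CPM at day 5 and 1058 against 1151 CPM at day 0. Cells with both Pi16 and Dpp4, however, were 34 of 91 against 909 of 9306 other Pdgfra-positive cells at day 5, and 36 of 113 against 615 of 6052 at day 0.

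Of the genes related to what Scg3 and S100g do, none that could be compared was at least 2-fold higher in both libraries. Of 25 granin and dense-core granule genes, 3 had enough counts to be compared. Among them Cpe, the carboxypeptidase that trims peptide hormones, was lower, at 54.3 against 115 CPM at day 5 and 33.5 against 112.5 CPM at day 0. Of 13 other genes of calcium-binding proteins compared, 0 passed 2-fold in either direction, with median log2 ratios of 0.38 and 0.33. Among them S100a10, which binds annexin, was 1.42-fold at day 5 and 1.57-fold at day 0. Of the 16 genes of vitamin D action and calcium transport, 3 could be compared and 0 passed 2-fold, with the parathyroid hormone receptor Pth1r at 0.505 and 0.464.

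In none of the matrix lists did more than 1 gene pass 2-fold as higher in both libraries. Of 14 collagens compared, 0 passed 2-fold in both libraries, and Col1a1 had 1681 against 2912 CPM at day 5 and 2669 against 3747 CPM at day 0. Of 12 small leucine-rich proteoglycans, 0 were higher and 2 lower, the tendon-rich Fmod (0.246 and 0.402) and Chad (0.351 and 0.295). Of 19 matricellular genes, 1 was higher (Ccn3) and 5 lower, among them Cilp2 and Sparcl1, and of 15 elastic fibre genes, 0 were higher and 2 lower. Lox, the collagen crosslinking enzyme, was the 1 lower gene of 15 for collagen processing, at 0.478 and 0.354. Of 24 immediate early and heat shock genes, which tissue digestion can induce, 0 passed 2-fold, with median log2 ratios of -0.25 at day 5 and -0.38 at day 0. Their part in the other results was not tested.

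Cells with only 1 of the transcripts were set beside those with both. Under the same exclusions, 850 cells at day 5 and 843 at day 0 had Scg3 only, 271 and 208 had S100g only, and 5438 and 3212 had neither. Dpp4 stood at 80.7 CPM in Scg3+ S100g+ cells at day 5, 35.7 with Scg3 only, 36.7 with S100g only and 16.9 with neither. At day 0 the Dpp4 order was the same at the top and the bottom, with 73.8, 36.2, 31.6 and 18.1 CPM. The single-positive sets did not differ beyond the counting error of Dpp4. Ccn3 had 431, 212, 202 and 86.3 CPM at day 5 in that order, and 696, 476, 325 and 225.0 CPM at day 0.

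Igfbp6 and Myoc were higher with S100g only than with Scg3 only in both libraries. Igfbp6 had 4013 CPM in Scg3+ S100g+ cells, 2653 with S100g only, 1885 with Scg3 only and 1260.5 with neither at day 5, and 4201, 4418, 2288.5 and 1839 CPM at day 0. Myoc had 3760.4 CPM in Scg3+ S100g+ cells, 3404.5 with S100g only, 1595 with Scg3 only and 1692 with neither at day 5. At day 0 Myoc had 4271.5, 4555, 2222 and 2180.2 CPM. The S100g-only cells thus lay above the Scg3+ S100g+ cells in both genes at day 0 and below them at day 5. Fmod, a collagen-binding proteoglycan of tendon, was lower in the sets with Scg3. It had 71.6 CPM in Scg3+ S100g+ cells at day 5, 359 with S100g only and 63.7 with Scg3 only, and at day 0 it had 152, 819 and 28.3 CPM. The cells with exactly 1 UMI of each transcript had 3703 CPM of Igfbp6 at day 5 and 2598.5 CPM at day 0, against 4112 and 4523 CPM in the cells with more.

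**Figure D2:**
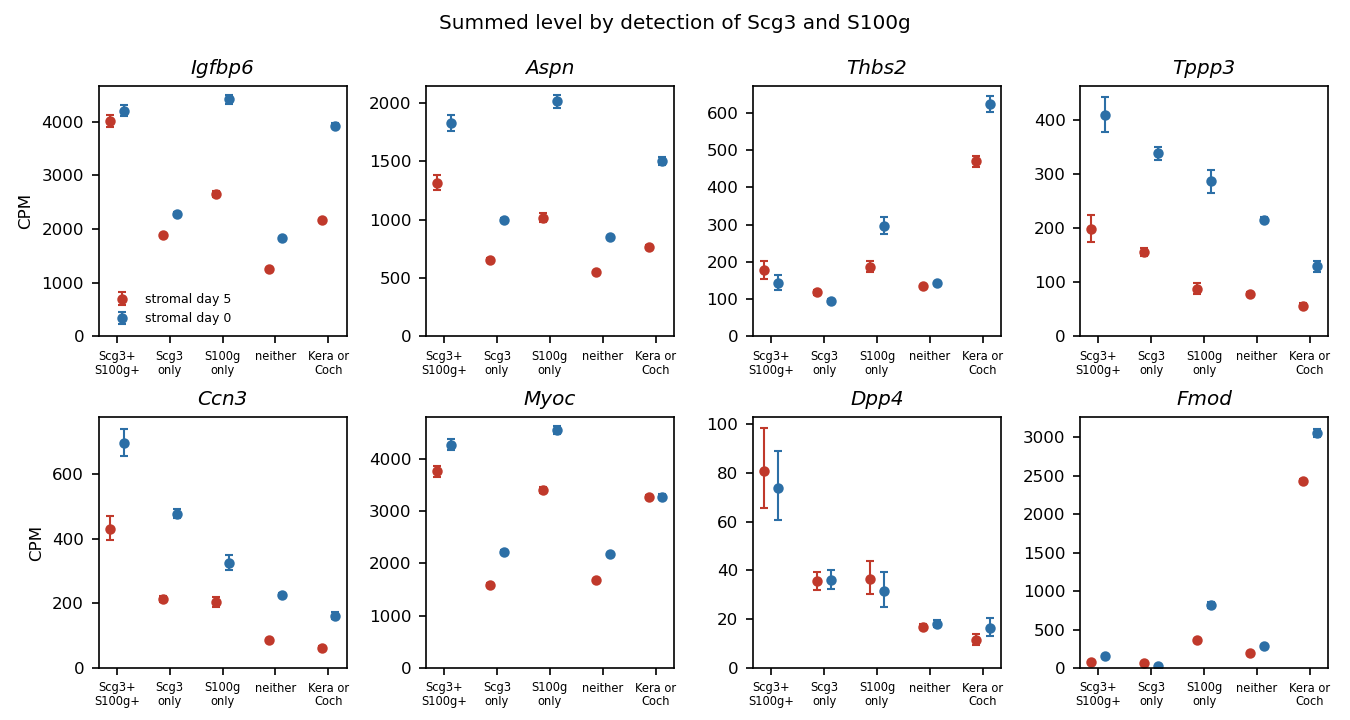
Level of 8 genes in CPM, with exact 95% Poisson intervals, in cells with Scg3 and S100g, with 1 of them, with neither (all Pdgfra-positive, under the same exclusions) and in cells with Kera or Coch, at day 5 (red) and day 0 (blue). Dpp4 and Ccn3 are highest in the Scg3+ S100g+ cells of both libraries, at 80.7 and 73.8 CPM for Dpp4, while Thbs2 and Fmod are highest in the Kera or Coch cells, at 469 and 622 CPM for Thbs2.

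Against cells with Kera or Coch, 773 at day 5 and 444 at day 0, the Scg3+ S100g+ cells had lower tenocyte genes and higher Krtdap, Pou2f2, Dpp4 and Ccn3. Of these cells, 533 at day 5 and 327 at day 0 were Pdgfra-positive and so stood among the other Pdgfra-positive cells above as well. Of 2751 genes compared, 60 were at least 2-fold higher in both libraries (2.18%) and 77 at least 2-fold lower in both (2.8%). With Kera and Coch together at 3 UMIs or more, 91 were higher.

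Of 11 tenocyte genes compared outside the rule, 10 were at least 2-fold lower in the Scg3+ S100g+ cells of both libraries and 0 higher, with median log2 ratios of -2.60 at day 5 and -3.32 at day 0. The rule itself left out cells with Kera or Coch, which tenocytes make, so the low tenocyte genes are a description of that choice. Fmod had 71.6 against 2434 CPM at day 5 and 152 against 3058 CPM at day 0. Tnmd (tenomodulin, a membrane protein of tendon cells) had 18.1 against 461.5 CPM at day 5 and 38.3 against 524 CPM at day 0, and Thbs4, a thrombospondin of tendon, had 36.2 against 1745 CPM at day 5 and 145 against 1456 CPM at day 0. Scx (scleraxis, the tendon transcription factor) had 12.4 against 74.1 CPM at day 5 and 39.6 against 139.6 CPM at day 0. Egr1, an early response gene also used in tendon, was the 1 that did not pass, at 1.17 and 0.909. First in the ranking of low ratios was Wif1, a secreted Wnt antagonist, at 6.59 against 360.5 CPM at day 5 and 7.52 against 353 CPM at day 0. Cilp2, Ccdc3, Chad, Col11a1, Mylk, Pdgfrl, Rgcc and Cpxm2 were the rest of the 12 lowest, at 0.150 or less in both libraries.

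Krtdap, a secreted peptide known from keratinocytes, had 603.5 against 63.2 CPM at day 5 and 314 against 33.9 CPM at day 0, or 9.55-fold (8.57 to 10.7) and 9.28-fold (7.80 to 11.1). It was found in 30 of 91 cells at day 5 and 37 of 113 at day 0. Pou2f2 was 11.4-fold (8.42 to 15.4) and 7.94-fold (5.74 to 11.1), and Dpp4 7.05-fold (5.32 to 9.33) and 4.49-fold (3.35 to 6.02). Ccn3 was 6.93-fold and 4.31-fold. Lims2, Zfp385a, Nova1, Efhd1, Cadm3, Engase, Scara5 and Adgrd1 completed the 12 highest, between 3.51-fold and 7.32-fold.

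Other lists were set against the Kera or Coch cells in the same way. Of 9 progenitor-like genes, 5 were at least 2-fold higher in both libraries and 0 lower, with Pi16 among them at 1354 against 504 CPM at day 5 and 1058 against 439 CPM at day 0. Of 11 sheath genes, 2 were higher, Tppp3 (3.51-fold and 3.16-fold) and Cd34 (2.54-fold and 2.24-fold), and 1 lower, Thbs2 (0.379 and 0.231). Of 17 collagens, 0 were higher and 4 lower, Col1a1, Col11a1, Col12a1 and Col15a1. Col1a1 had 1681 against 5602 CPM at day 5 and 2669 against 7829 CPM at day 0. Of 14 elastic fibre genes, 3 were higher and 2 lower, with the fibrillin Fbn1 at 2.36-fold and 3.02-fold and Emilin2 at 3.07-fold and 2.74-fold. Csf1, the growth factor of macrophages, had 314.5 against 147 CPM at day 5 and 342 against 144 CPM at day 0. The prostaglandin-degrading enzyme Hpgd was lower, at 0.153 and 0.104, as was the prostaglandin receptor Ptgfr, at 0.179 and 0.134.

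The Scg3+ S100g+ cells did not form a cluster of their own. Pdgfra-positive cells of both libraries were clustered without the rule genes and the proposed markers, at a resolution of 1.0, and the 204 cells fell into 16 of the 21 clusters. Clusters were left unnamed and are given by their leading genes. Cluster 2, led by Efhd1, Cd248 and Zfp385a and with Pi16, Dpp4 and Anxa3 among its 10 leading genes, held 10 of the 91 day 5 cells and 33 of the 113 day 0 cells. Cluster 1, led by Myoc, Anxa8 and Sbsn, held 14 and 26. Together these clusters held 40.7% of the Scg3+ S100g+ cells and 11.7% of all Pdgfra-positive cells. By library they held 26.4% of the Scg3+ S100g+ cells at day 5 and 52.2% at day 0. Even in cluster 1, the Scg3+ S100g+ cells were 4.22% of the cells at day 5 (2.32 to 6.97) and 7.63% at day 0 (5.04 to 10.97), and in cluster 2 they were 3.85% and 3.72%.

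The rest of the cells lay partly in clusters held on both days and partly in clusters of 1 day. Cluster 12, led by the acute-phase and chemokine genes Ptx3, Lcn2 and Ccl2, held 13 of the 91 day 5 cells and 0 of the day 0 cells. Cluster 0, led by Dpep1, Sult5a1 and Adh7, held 13 and 1, and had 1000 cells at day 5 against 89 at day 0. Cluster 9 (Tnmd, Dkk2) held 0 at day 5 and 12 of the 113 at day 0, and had 293 cells at day 5 against 550 at day 0. Cluster 11, led by the tendon-type genes Angptl7, Fmod and Chad, held 11 and 14, and cluster 3, led by Lhx2 and Pla2g2e, held 8 and 9. Nearly all cells of cluster 12 were from the day 5 library, 1334 cells against 25 at day 0, so that cluster may be that library and not a type. A level summed over the Scg3+ S100g+ cells thus averages over cells of several clusters, in proportions that differed between the days.

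**Figure D3:**
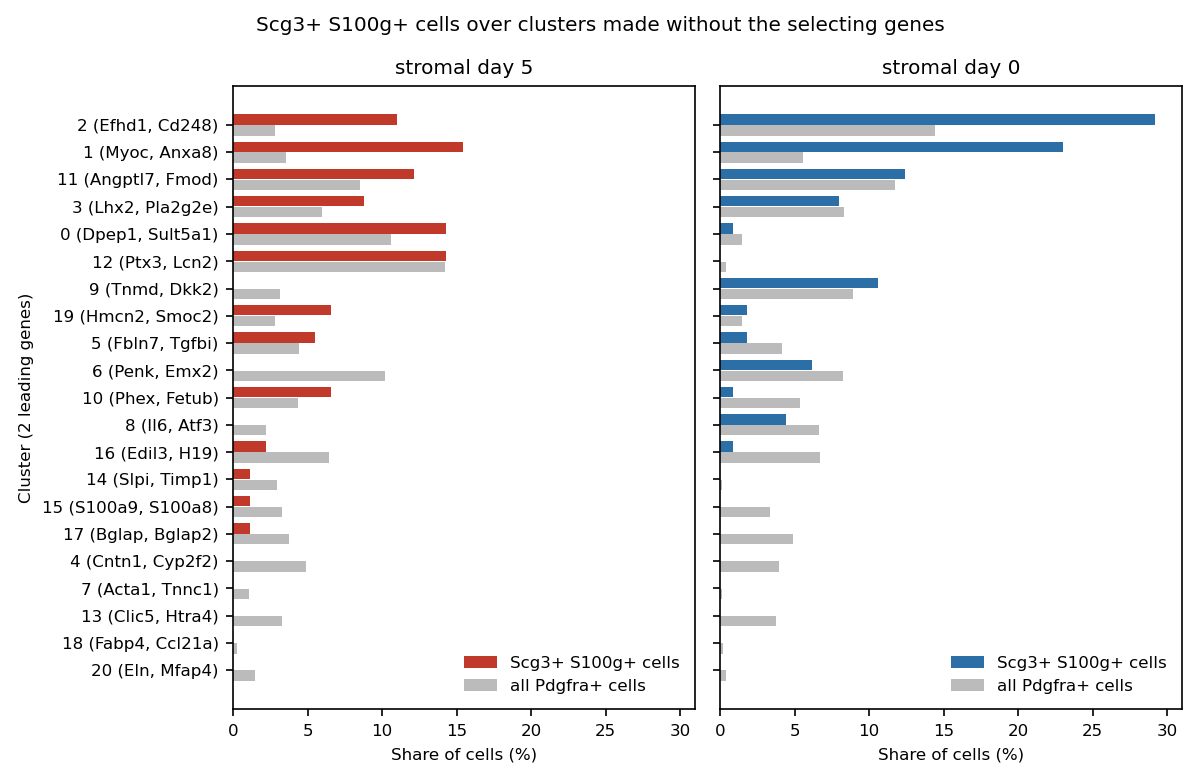
Share of the Scg3+ S100g+ cells (coloured bars) and of all Pdgfra-positive cells (grey bars) of a library, in percent, that lay in each cluster, for day 5 (left) and day 0 (right), with each cluster's 2 leading genes. Clusters 1 and 2 together hold 26.4% of the Scg3+ S100g+ cells at day 5, against 52.2% at day 0. Their grey bars are also lower at day 5, at 3.53% against 5.53% for cluster 1 and 2.77% against 14.4% for cluster 2.

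Between the days, the Scg3+ S100g+ cells had more acute-phase and NF-kB pathway transcripts at day 5 and fewer of several tenocyte, Wnt and sterol genes. The sterol list was lower in other Pdgfra-positive cells too, and by more. Their 91 cells at day 5 gave 1214489 UMIs and the 113 at day 0 gave 1463659. Of 5989 genes with at least 50 UMIs over both libraries, 347 were at least 1.5-fold higher at day 5 (5.79%) and 446 at least 1.5-fold lower (7.45%). These counts have no replicate check. For each gene the same ratio in the other Pdgfra-positive cells under the same exclusions, 6559 at day 5 and 4263 at day 0, is given beside it. Within clusters 1 and 2 alone, 24 cells at day 5 and 59 at day 0, 774 of the same 5989 genes were higher and 948 lower. The genes were kept by their UMIs over all the Scg3+ S100g+ cells, and some had few UMIs within these clusters. There Mmp3 was 0.493 (0.0920 to 1.72), Ptx3 0.821 (0.235 to 2.35) and Thbs4 1.58, on the other side of 1. These values rest on 3, 5 and 3 UMIs at day 5, against 16, 16 and 5 at day 0. They are too few to establish a change of direction. Among further genes called between the days, the ratio within these clusters was 0.905 for Cxcl1, 0.970 for Col4a1, 0.657 for Spp1, 1.31 for Acta2 and 1.31 for Fmod, most from few UMIs. Hbegf and Mmp13 had 0 UMIs there at day 5, against 15 and 3 at day 0.

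Ccl7, a chemokine that draws monocytes, had 205.0 CPM at day 5 against 9.57 CPM at day 0, or 21.4-fold (12.5 to 39.8), and 6.39-fold in the other fibroblasts. It was found in 21 of 91 cells at day 5 and 9 of 113 at day 0, and 30.5% of its UMIs at day 5 were in 1 cell, without which the ratio was 19.0. Ccl2, another such chemokine, did not pass 1.5-fold, with 58.5 CPM at day 5 and 55.3 CPM at day 0, against 7.18-fold in the other fibroblasts. Ccl2 was found in 13 of 91 cells at day 5 and 8 of 113 at day 0, with 57.8% and 33.3% of its UMIs in 1 cell. Ccl11 was 1.78-fold and Cxcl1 1.70-fold (0.905 within clusters 1 and 2), while Cxcl14 was lower at 0.636. Of 9 chemokine genes, 3 were higher and 2 lower.

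Acute-phase and innate defence genes were higher almost throughout, 9 of 10 with 0 lower, at a median log2 ratio of 1.07, against 1.36 in the other fibroblasts and -0.02 over all genes compared. Mt2, a metallothionein that binds zinc and copper, had 1834.5 CPM at day 5 against 487 CPM at day 0, or 3.77-fold (3.46 to 4.10), and 3.28-fold in the other fibroblasts. It was found in 88 of 91 cells at day 5 and 105 of 113 at day 0. Slc39a14, a zinc and iron importer, had 65.1 against 18.5 CPM, or 3.53-fold (2.25 to 5.68). Ptx3, a secreted pattern-recognition protein, had 97.2 against 34.8 CPM, or 2.79-fold (1.99 to 3.95), below the 6.04-fold of the other fibroblasts. Lcn2, an iron-siderophore binder, was likewise 2.07-fold, against 5.81-fold in the other fibroblasts. Whether these ratios differ was not tested, and both sets of cells were limited to fewer than 5 UMIs of the acute-phase gene Saa3. Cfb, a complement factor, was the 1 gene of the list that did not pass, at 0.936.

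Genes of NF-kB signalling and its feedback were also higher, 6 of 11 with 0 lower, at a median log2 ratio of 0.60, against 0.46 in the other fibroblasts. Nfkbiz had 142 against 74.5 CPM, or 1.91-fold (1.496 to 2.45), and the mitochondrial superoxide dismutase Sod2 had 119 against 62.9 CPM, or 1.89-fold (1.44 to 2.48). Of 10 interferon-response genes, 4 were higher and 0 lower, with the transcription factor Irf1 at 64.2 against 30.7 CPM. Leukocyte and neutrophil genes held 1 to 3 UMIs per library in these cells, as given above. Of 24 immediate early and heat shock genes, 5 were higher and 2 lower, led by Egr1 at 2.02-fold and with Hspa1a lowest at 0.534, and their part in the day difference was not tested.

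Several of the largest ratios rested on few cells. Ibsp (bone sialoprotein) had 70.8 CPM at day 5 against 2.73 CPM at day 0, or 25.9-fold, but 90.7% of its UMIs at day 5 were in 1 cell. Without that cell and the highest one of day 0 the ratio was 4.83 (0.965 to 46.7), and with at least 2 UMIs each of Scg3 and S100g it was 0.506. Mmp3 (stromelysin) had 282 against 30.1 CPM, or 9.37-fold, with 74.6% of its UMIs in 1 cell at day 5, and 2.99-fold without the highest cells. The retinol carrier Rbp4 was 3.65-fold, and 1.90-fold without the highest cells. Cluster 17, led by the bone genes Bglap and Ibsp, held 1 of the Scg3+ S100g+ cells at day 5 and 0 at day 0.

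The genes that led cluster 0 were among the highest at day 5. Sult5a1, a sulfotransferase, had 64.2 CPM against 15.0 CPM, or 4.27-fold (2.63 to 7.21), and Dpep1, a membrane dipeptidase, had 74.9 against 19.8 CPM, or 3.78-fold (2.47 to 5.96). In the other fibroblasts these were 1.80-fold and 1.97-fold. Cluster 0 held 13 of the 91 cells at day 5 and 1 of the 113 at day 0. The whole cluster had 1000 cells at day 5 and 89 at day 0, of which these were 1.3% and 1.12%. Ltbp2, a microfibril protein, had 50.2 against 9.57 CPM, or 5.25-fold (2.90 to 10.2), in 11 of 91 cells at day 5 and 6 of 113 at day 0. Cdo1, the cysteine dioxygenase, had 170.4 against 57.4 CPM, or 2.97-fold (2.29 to 3.87), and Pcsk5, a proprotein convertase, 59.3 against 21.2 CPM, or 2.80-fold (1.81 to 4.41). Among matrix genes named from the lists, Lox was 2.77-fold, with 176 against 63.5 CPM, and 2.185-fold in the other fibroblasts. The basement membrane collagen gene Col4a1 was 2.14-fold, but 0.970 (0.581 to 1.57) within clusters 1 and 2, and Col1a1, the main collagen gene of tendon and bone, was lower, at 1681 against 2669 CPM, or 0.630.

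**Figure D4:**
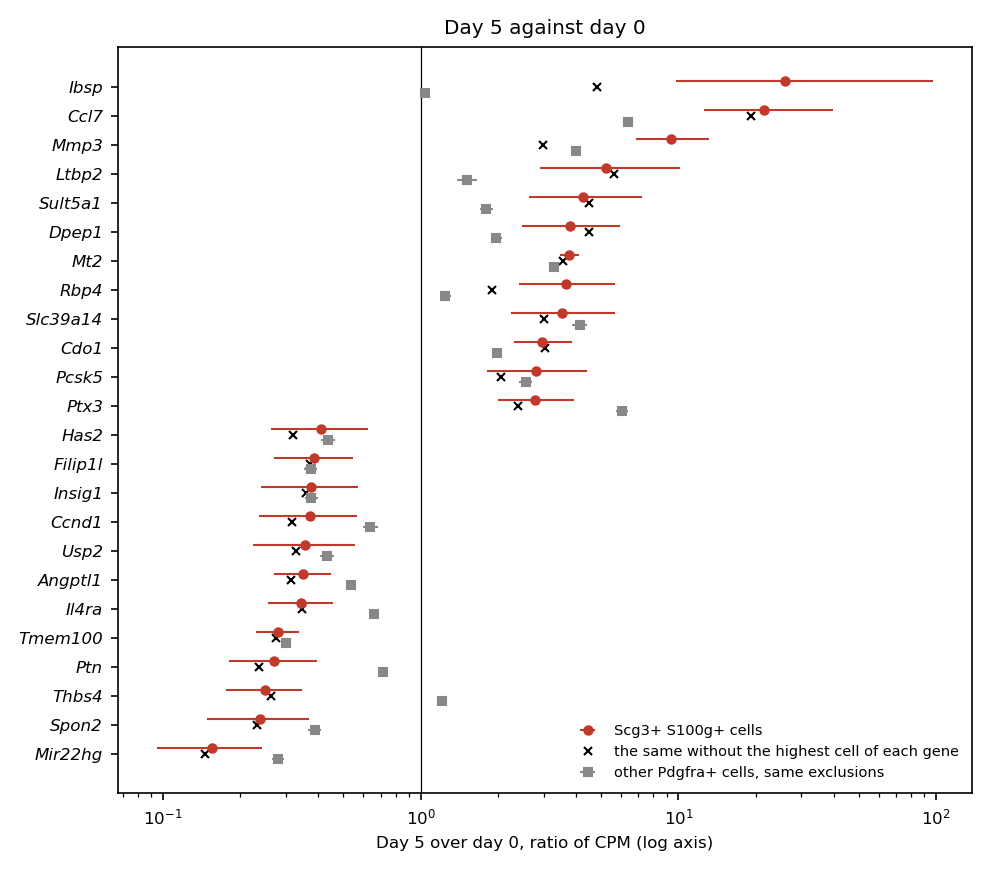
Ratio of CPM at day 5 over day 0 (log axis) of the 12 highest and 12 lowest genes in the Scg3+ S100g+ cells (red, exact 95% intervals of counting error), the same without the cell of each library that held most UMIs of the gene (crosses), and in other Pdgfra-positive cells under the same exclusions (grey). Ibsp and Mmp3 move furthest between red and cross, to 4.83 and 2.99, and for Thbs4 the grey point lies at 1.22 while the red one lies at 0.250.

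Of the 12 lowest genes, 11 also lay below 1 in the other fibroblasts, and Thbs4 did not. Mir22hg, the host transcript of a microRNA, had 18.1 CPM at day 5 against 117 CPM at day 0, or 0.155 (0.0947 to 0.243), and 0.280 in the other fibroblasts. Tmem100, a membrane protein downstream of BMP signals, had 110.3 against 394 CPM, or 0.280 (0.230 to 0.338), in 49 of 91 cells at day 5 and 92 of 113 at day 0, and 0.301 in the other fibroblasts. Insig1, the brake on sterol synthesis, had 24.7 against 65.6 CPM, or 0.377, and 0.378 in the other fibroblasts. The deubiquitinase gene Usp2, which follows the circadian clock, had 22.2 against 62.2 CPM, or 0.358, and 0.433 in the other fibroblasts. Of 13 sterol and fatty acid genes, 0 were higher and 3 lower, at a median log2 ratio of -0.34, against -0.65 in the other fibroblasts. Of 14 clock genes, 1 was higher (Dbp, 1.90-fold) and 3 lower. The hour at which paws were taken is not given in the sources used here.

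Filip1l at 0.387, Has2 (a hyaluronan synthase) at 0.411 and Spon2 (a secreted matrix protein) at 0.239 were lower together with the other fibroblasts, at 0.374, 0.437 and 0.389. Il4ra, the receptor chain for interleukins of the type 2 response, had 51.1 against 148 CPM, or 0.344 (0.255 to 0.459), against 0.662 in the other fibroblasts. It was found in 34 of 91 cells at day 5 and 62 of 113 at day 0. Ptn (pleiotrophin, a heparin-binding growth factor) was 0.271 against 0.716 in the other fibroblasts, the cyclin gene Ccnd1 0.372 against 0.639, and Angptl1 0.349 against 0.536. Whether these ratios differ between the sets of cells was not tested.

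Tenocyte genes were lower at day 5 in the Scg3+ S100g+ cells, 6 of 10 with 1 higher, at a median log2 ratio of -0.73, against -0.47 in the other fibroblasts. Thbs4 had 36.2 CPM at day 5 against 145 CPM at day 0, or 0.250 (0.177 to 0.347), and 1.22 in the other fibroblasts. It was found in 15 of 91 cells at day 5 and 20 of 113 at day 0, and 35.4% of its UMIs at day 0 were in 1 cell. Scx was 0.312 and Tnmd 0.473 (0.275 to 0.788). Fmod was 0.470, with 80.5% of its UMIs at day 5 and 56.5% at day 0 in 1 cell, and 0.212 without those cells. Cluster 9, led by Tnmd, held 12 of the cells at day 0 and 0 at day 5, and had 550 cells at day 0 against 293 at day 5. Within clusters 1 and 2 alone Thbs4 was 1.58, Fmod 1.31 and Tnmd 0.956, with 3 UMIs of Thbs4 at day 5 and 5 at day 0. Of 11 Wnt genes, 0 were higher and 4 lower, among them the secreted antagonists Dkk3 (0.444) and Sfrp2 (0.248).

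Among the genes that led against the other Pdgfra-positive cells, Dpp4, Igfbp6, Myoc and Aspn stayed within 1.5-fold between the days, while Ccn3, Anxa3 and Tppp3 were lower at day 5. Dpp4 had 80.7 CPM at day 5 against 73.8 CPM at day 0, or 1.09 (0.823 to 1.45), and Igfbp6 was 0.955 (0.920 to 0.992), against 0.682 in the other fibroblasts. Myoc was 0.880 against 0.757 and Aspn 0.720 (0.676 to 0.766) against 0.618. Ccn3 was lower at 0.619 (0.556 to 0.688), against 0.388 in the other fibroblasts, and Anxa3 lower at 0.617 against 0.619. Tppp3 was lower at 0.484 against 0.369.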

How the data were processed

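Single cells of the stromal libraries were compared by Scg3 and S100g. The authors deposited UMI counts per gene and barcode, and per the file headers Cell Ranger 6.0.1 made them. The labels' protocols name a 10x mouse reference on the mm10 build. Seurat 4.3.0 is named in the submitters' processing notes, and its role is not given in the sources used here. Counts were used as deposited, with no doublet removal.

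The members, the gene lists and the tests were chosen with earlier results of these data known. UMIs were summed over cells and divided by the set's total (CPM). Called means at least 2-fold in both libraries between sets of cells (at least 50 CPM in the higher set) and at least 1.5-fold between days (at least 50 UMIs over both). Symbols listed more than once in the files and the rule genes were left out. Named genes were the 20 highest and 12 lowest ratios against other Pdgfra-positive cells, 12 and 12 in the other comparisons, without mitochondrial, ribosomal, haemoglobin and predicted genes, Xist, Tsix and Y-linked genes. Each list could add up to 3 genes on the side of its median plus 1 on the opposite side. Further list genes were chosen after their values were seen.

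Clustering used scanpy 1.11.5 with 2000 variable genes, 30 principal components, 15 neighbours and Leiden at resolution 1.0. Other tools were Python 3.11.15, scipy 1.17.1, edgeR 4.0.16 and DESeq2 1.42.0 (the last pair for scaling factors only). The code for ratios and intervals was tested on simulated data, counts drawn with known fold changes. Alternatives were other cell filters, 2 UMIs of each gene, no Saa3 limit, removal of the highest Scrublet scores (0.8% per 1000 barcodes), thinning to 5000 UMIs, TMM and DESeq2 scaling, CPM averaged over cells, no minimum, narrower sets of cells and other resolutions. Gene positions are from GENCODE M21.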

Additional observations from a re-analysis of the deposited data

Results flagged for a closer look

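Among the named genes and the genes of the lists, 10 were flagged for opposite directions in the sets of cells. In these, the day 5 over day 0 ratio of the Scg3+ S100g+ cells passed 1.5-fold in one direction. The ratio in other Pdgfra-positive cells under the same exclusions lay on the other side of 1. The rest of the 5989 genes compared between the days were not screened this way, so 10 is no count over all genes. The difference between the sets of cells was not tested, since there was 1 library per day. Thbs4 was 0.250 in the Scg3+ S100g+ cells, against 1.22 in the others, and Sfrp2 was 0.248 against 2.59, in 4 of 91 cells at day 5 and 6 of 113 at day 0. Cxcl14 was 0.636 against 1.26, and Acta2 (smooth muscle actin) was 0.525 against 1.67, from 17 UMIs at day 5 and 39 at day 0. Prg4 was 2.29 against 0.877, with 1984 CPM at day 5 and 868 CPM at day 0 in the Scg3+ S100g+ cells, and 18.2% of its UMIs at day 5 in 1 cell. Has1, another hyaluronan synthase, was 1.52 against 0.739, and the proteoglycan gene Omd was 1.75 against 0.890. Hbegf was 1.69 against 0.568, Spp1 2.11 against 0.549 and Mmp13 3.27 against 0.932. For these 3 genes, 80.8%, 65.5% and 79.0% of the UMIs at day 5 were in 1 cell, and without the highest cells the ratios were 0.432, 1.59 and 2.42. Within clusters 1 and 2, Spp1 was 0.657, Acta2 1.31, Prg4 1.97 and Has1 1.02, while Hbegf and Mmp13 had 0 UMIs at day 5.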

How the results depend on the processing

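With at least 2 UMIs of Scg3 and S100g, the share was 0.351% at day 5 and 0.552% at day 0, 18 genes were higher than in other Pdgfra-positive cells, 186 were higher and 248 lower at day 5, and Ibsp was 0.506. Thinned to 5000 UMIs, with shallower cells left out, the shares were 0.567% and 0.965%. After thinning, 13 genes were higher than in other Pdgfra-positive cells, and 117 were higher and 148 lower at day 5. With the highest Scrublet scores removed, 15 were higher than in other Pdgfra-positive cells. With no minimum and 0.5 UMIs added, 3992 were higher and 480 lower against other Pdgfra-positive cells, 548 and 582 against Kera or Coch cells, and 2709 and 2737 between days. With Kera and Coch at 3 UMIs or more, 91 were higher than in those cells. Clusters 1 and 2 alone, on the genes kept for all the Scg3+ S100g+ cells, gave 774 higher and 948 lower at day 5. Within these clusters Mmp3 was at 0.493, Ptx3 at 0.821 and Thbs4 at 1.58. These 3 ratios came from few UMIs. Without the highest cell of each gene, 5 were higher than in other Pdgfra-positive cells. The last pair of alternatives was chosen after seeing the data. At a resolution of 0.5, the fullest cluster held 33.3% of the Scg3+ S100g+ cells and the fullest pair 54.9%, and at 2.0 the pair held 32.8%. The cause of these moves was not tested, beyond fewer cells or counts where the setting itself left them.

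The share at day 5 over day 0 lay between 0.527 and 0.637 in all alternatives run. The other counts of genes stayed within 1.5 times. TMM and DESeq2 scaling left every named gene on its side. Over all alternatives, 282 list medians stayed within a fixed log2 tolerance of the main value and 93 moved. For named genes, 1102 ratios against other cells stayed within their counting error and 242 moved. Of the day ratios of named genes, 261 stayed, 46 moved and 4 changed sides of 1. Ibsp had no value after thinning. No paired analysis was possible because each day had 1 library. Depth limits genes with few UMIs: 1 UMI summed over these cells is under 1 CPM.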
